A study of Mus musculus with 3 samples.

Results

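The mitochondrial ribosomal protein genes are the nuclear genes for the protein parts of the mitochondrial ribosome. They were taken as the protein-coding genes whose name starts with Mrpl or Mrps followed by a digit, which gave 78 of the 55487 genes in the deposited table and 78 of its 21936 protein-coding genes. By textbook assignment 51 of the 78 encode proteins of the large subunit and 26 encode proteins of the small subunit. The remaining gene, Mrps36, carries the name but encodes a subunit of the 2-oxoglutarate dehydrogenase complex. The 78 genes lie on 17 chromosomes.

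The libraries are bulk RNA-seq of wild-type (WT) mouse bone marrow derived dendritic cells (BMDCs), which are dendritic cells grown from bone marrow in culture. There is 1 library of untreated cells, 1 of cells treated with P. vulgatus and 1 of cells treated with YB328, both of them names of bacteria. All 3 libraries share the genotype and the cell type. The sources used here do not give the dose, the length of the treatment, the culture method or whether the bacteria were alive.

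Mitochondria make a small set of respiratory chain proteins from their own DNA, and they do so on a ribosome of their own. Its ribosomal RNAs, 12S and 16S, come from the mitochondrial genome, while every one of its proteins is made in the cytosol from nuclear genes and imported. Part of these proteins descend from the bacterial ancestor of mitochondria and have counterparts in bacterial ribosomes, and part were added in the mitochondrial lineage. In dendritic cells, stimulation by bacteria is known to shift energy metabolism between respiration and glycolysis.

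The libraries held 15538133 (untreated), 26660870 (P. vulgatus) and 26924006 (YB328) estimated counts. Levels are given as CPM, a gene's count relative to its library's total after scaling with the TMM method (trimmed mean of M values), or as TPM, which also corrects for gene length and is the scale used here to set the levels of these genes against each other. The makeup of the untreated library stood apart: nuclear protein-coding genes other than Lars2 held 57.9% of its counts, and 95.3% and 96.6% in the P. vulgatus and YB328 libraries. Genes annotated as ribosomal RNA held 9.54%, 0.789% and 0.386% of counts in the same order, and the 13 mitochondrially encoded protein genes 12.8%, 0.748% and 0.577%. The part of this difference in the results was not tested beyond the other scalings given below. Dendritic cell markers were present in all 3 libraries, with a summed level over 10 genes of 9715 (untreated), 16561 (P. vulgatus) and 16217 (YB328) CPM. The 10 neutrophil markers summed to 4419, 337 and 298 CPM, the 10 markers of dividing cells to 400.0, 127 and 130.04 CPM, and the 10 macrophage markers to 514, 1022 and 1810 CPM, with no marker of the 4 lists at 0 in any library. Single markers could differ from these sums. The log2 ratio to untreated was below 0 for 4 of the 10 dendritic cell markers with each bacterium. It was below 0 for 3 (YB328) and 6 (P. vulgatus) of the 10 macrophage markers. All 7 neutrophil and all 9 dividing cell markers of 5 CPM or more in at least 1 library were below 0 with both. In bulk RNA, fewer cells of a type and less RNA per cell cannot be told apart. The part of these markers in the results on ribosomal protein genes was not tested.

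With 1 library per group there is no replicate error, so differences are given by size alone, without a test or a p-value. Here a gene is called higher or lower when it reached 5 CPM in at least 1 library, when its log2 ratio, taken with 0.5 CPM added to both values, was 1 or more in either direction, and when the exact 95% interval of its count ratio excluded 1. That interval covers counting error only, not the spread between cultures, and it takes reads as independent. Reads copied by PCR and carrying no molecular identifier cannot be traced to single molecules, so the interval may be too narrow. A fold is the plain ratio of both CPM values.

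All 78 genes were expressed at 5 CPM or more in at least 1 library. Their estimated counts ran from 33 to 1470 (untreated), from 128 to 1977 (P. vulgatus) and from 157 to 2206 (YB328). The median TPM over the 78 genes was 36.1 (untreated), 35.9 (P. vulgatus) and 41.4 (YB328). The RNA levels of genes whose proteins sit in the same particle were far apart. The lowest TPM in the untreated library was 1.05 (Mrps2) and the highest 373 (Mrpl52), and protein was not measured.

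The highest mean TPM over the 3 libraries belonged to Mrpl52, which encodes a mitochondria-specific protein of the large subunit's central protuberance, with 373 (untreated), 375 (P. vulgatus) and 402 (YB328) TPM. Mrps21, which encodes a small subunit protein of a bacterial family, came next with 324, 354 and 435 TPM. Mrpl33, which encodes a small large subunit protein of a bacterial family, had 321, 275 and 299 TPM. Mrpl14, Mrpl54 and Mrpl20 followed with mean TPM of 154, 147 and 123. All 6 of these genes were at or above 64.8 TPM in every library.

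At the other end, Mrpl19 had 3.62, 3.19 and 8.11 TPM, and Mrpl47 had 6.53, 8.10 and 6.58 TPM. Mrpl1, the counterpart of a bacterial protein of the large subunit's mobile stalk, had 4.81, 6.88 and 10.8 TPM. Mrps2, Mrps31 and Mrpl50 were the other genes among the lowest 6, with mean TPM of 6.004, 7.47 and 8.06. The order of the 78 genes was much alike between libraries, with a Spearman correlation of TPM over the 78 genes of 0.881 between YB328 and untreated, 0.873 between P. vulgatus and untreated and 0.976 between YB328 and P. vulgatus, as a description of genes within libraries that share the same gene lengths.

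**Figure D1:**
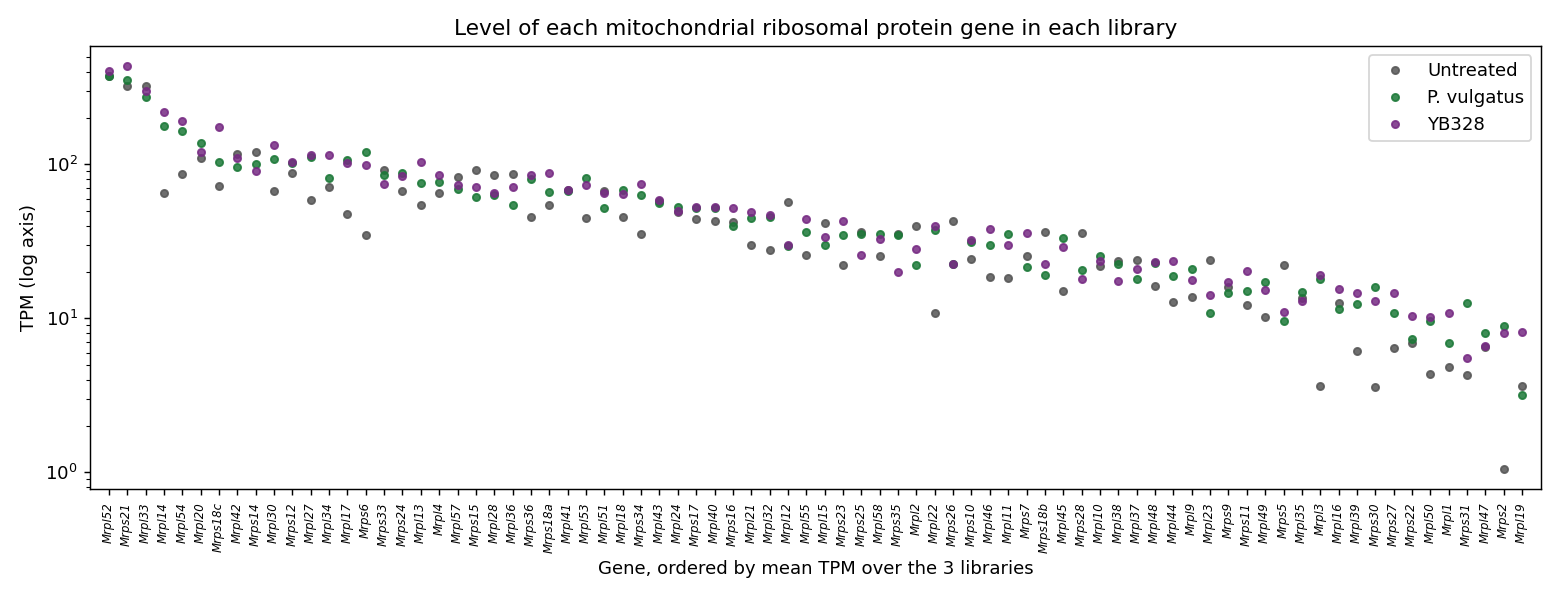
TPM (log axis) of each of the 78 mitochondrial ribosomal protein genes in each of the 3 libraries, ordered by mean TPM; each point is 1 library. Levels run from 1.05 TPM for Mrps2 in the untreated library to 435 TPM for Mrps21 with YB328, and the 3 points of most genes lie close together next to the spread between genes.

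With YB328, 5 of the 78 genes rose and 6 fell against the untreated library, 6.41% and 7.69% of them. Over all 10699 expressed genes, 24.7% were called higher and 18.3% lower in the same comparison, so both shares were below the background. The median log2 ratio of the 78 genes was -0.05 beside 0.17 for all expressed genes. Their log2 ratios had an interquartile range of -0.58 to 0.42, against -0.68 to 0.99 for all expressed genes, and 85.9% of them lay within 1 log2 unit of no difference, against 57.0%. Smaller differences were past counting error if reads are taken as independent. The interval of the ratio excluded 1 for 62 of the 78 genes, or 79.5%, beside 87.7% of all expressed genes. Among genes of 20 CPM or more in at least 1 library, 89.4% of the 66 ribosomal protein genes left and 59.3% of all 7081 genes lay within 1 log2 unit.

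With P. vulgatus, 5 of the 78 genes rose and 6 fell against the same untreated library. The background was 25.2% called higher and 18.8% called lower, again above the genes' 6.41% and 7.69%. The median log2 ratio was -0.06, beside 0.15 for all expressed genes, and 85.9% of the 78 genes lay within 1 log2 unit, against 56.0%. The smallest and largest log2 ratios were -1.46 and 2.65 with P. vulgatus and -1.50 and 2.42 with YB328. Both comparisons use the same untreated library, so any peculiarity of that library enters both.

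**Figure D2:**
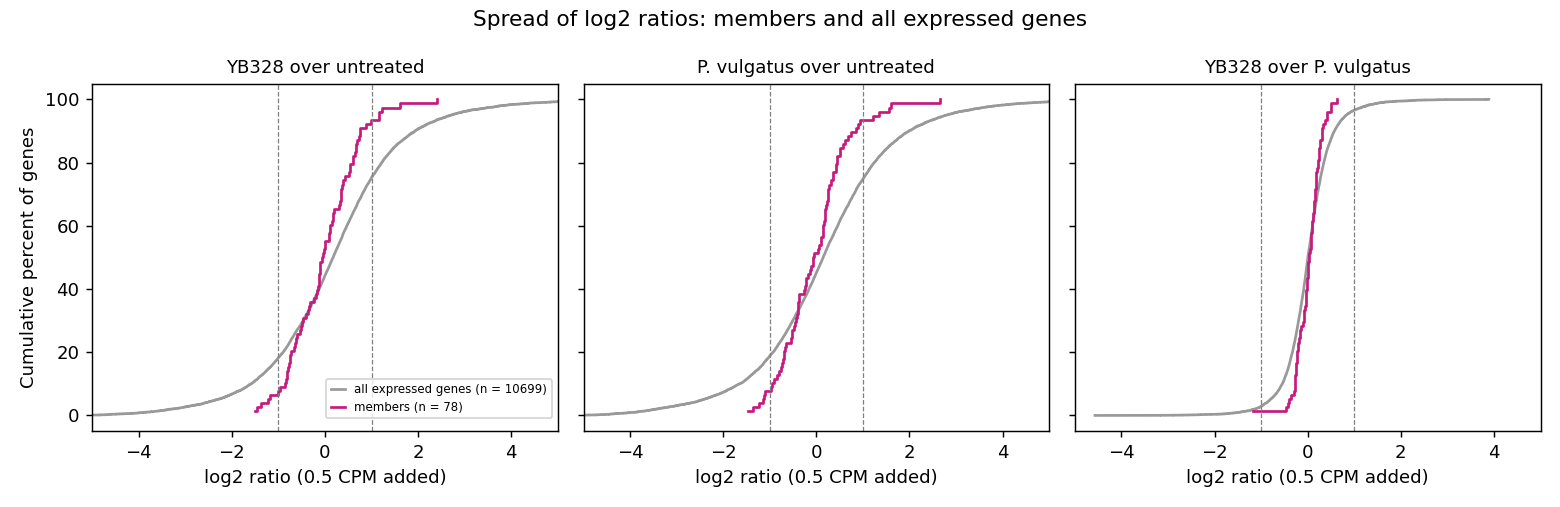
Cumulative percent of genes (vertical axis) by log2 ratio of CPM with 0.5 CPM added (horizontal axis, drawn from -5 to 5) for the 78 mitochondrial ribosomal protein genes and all 10699 expressed genes, in each of the 3 comparisons; dashed lines mark a log2 ratio of -1 and 1. In both comparisons with the untreated library the curve of the 78 genes is steeper, with 85.9% of them between the dashed lines against 57.0% (YB328) and 56.0% (P. vulgatus) of all genes.

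The genes called higher with both bacteria were Mrps2, Mrpl3, Mrpl22 and Mrps30, and those called lower with both were Mrps28, Mrps5, Mrps26, Mrpl23 and Mrpl12. The share of all expressed genes called with both bacteria was not computed, and both calls use the same untreated library. By deposited TPM, on which the median of all genes was itself higher in both treated libraries, the 4 higher genes were past the same size of ratio with both bacteria and the 5 lower ones were not. With YB328 the TPM log2 ratios were -0.98 (Mrps28), -0.98 (Mrps5), -0.91 (Mrps26), -0.74 (Mrpl23) and -0.91 (Mrpl12), all short of the size required. With P. vulgatus Mrps5 (-1.17) and Mrpl23 (-1.11) reached it by TPM, and Mrps28 (-0.79), Mrps26 (-0.92) and Mrpl12 (-0.95) did not. To show the start regions of genes that moved together, the sequences of 2 genes higher with both that hold the ETS-family motif CCGGAAG, of the gene with the largest ratio (Mrps2), and of 2 genes lower with both are given as RefSeq (build GRCm38.p6) has them. They run from 250 bases before to 50 after the annotated start, 5′ to 3′ on the gene's strand. Capitals mark CCGGAAG (or its reverse complement CTTCCGG) and, in Mrpl22 only, the NRF1 motif GCGCATGCG.
Mrpl3 (chr9:105053018-105053317, + strand): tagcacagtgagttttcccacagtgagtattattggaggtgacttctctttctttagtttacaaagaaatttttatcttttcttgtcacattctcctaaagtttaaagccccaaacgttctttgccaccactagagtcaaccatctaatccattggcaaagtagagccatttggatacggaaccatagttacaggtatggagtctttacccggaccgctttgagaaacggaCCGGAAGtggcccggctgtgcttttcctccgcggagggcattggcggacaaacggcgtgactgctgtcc
Mrpl22 (chr11:58171414-58171713, + strand): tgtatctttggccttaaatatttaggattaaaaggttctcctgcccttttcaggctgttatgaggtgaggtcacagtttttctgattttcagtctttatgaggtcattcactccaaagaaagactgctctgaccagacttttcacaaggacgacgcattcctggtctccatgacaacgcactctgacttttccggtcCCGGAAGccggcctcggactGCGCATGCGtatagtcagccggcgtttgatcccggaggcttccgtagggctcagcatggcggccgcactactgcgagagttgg
Mrps2 (chr2:28467816-28468115, + strand): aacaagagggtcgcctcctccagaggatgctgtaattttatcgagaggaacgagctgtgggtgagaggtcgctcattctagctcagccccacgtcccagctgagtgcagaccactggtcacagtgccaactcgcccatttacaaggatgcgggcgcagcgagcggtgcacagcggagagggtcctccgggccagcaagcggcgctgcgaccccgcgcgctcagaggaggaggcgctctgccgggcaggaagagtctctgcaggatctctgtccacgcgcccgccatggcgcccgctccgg
Mrps26 (chr2:130563507-130563806, + strand): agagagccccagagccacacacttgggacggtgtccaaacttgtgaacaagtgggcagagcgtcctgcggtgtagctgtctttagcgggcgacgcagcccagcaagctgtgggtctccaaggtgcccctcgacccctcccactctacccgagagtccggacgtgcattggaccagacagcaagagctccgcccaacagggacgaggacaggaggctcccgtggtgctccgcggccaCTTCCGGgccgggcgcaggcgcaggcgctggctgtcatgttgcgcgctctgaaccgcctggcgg
Mrpl12 (chr11:120484387-120484686, + strand): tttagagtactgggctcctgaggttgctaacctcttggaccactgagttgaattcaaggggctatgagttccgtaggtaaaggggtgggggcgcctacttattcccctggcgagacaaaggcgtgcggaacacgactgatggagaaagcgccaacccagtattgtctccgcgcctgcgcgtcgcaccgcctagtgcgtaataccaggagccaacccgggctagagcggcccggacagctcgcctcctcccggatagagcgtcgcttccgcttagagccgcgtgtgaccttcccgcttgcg
The Mrps2 and Mrpl12 windows hold none of the motifs searched, and Mrps26, lower with both bacteria, holds the same ETS-family letters as Mrpl3 and Mrpl22, higher with both.

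Among the large subunit genes that rose with both bacteria, Mrpl3 encodes the counterpart of a bacterial protein that reaches towards the peptidyl transferase centre, the site where peptide bonds are made. Mrpl3 (ENSMUSG00000032563.16, chr9:105053239-105079888, + strand) had 6.20 (untreated), 19.9 (P. vulgatus) and 19.9 (YB328) CPM. It was 3.22-fold higher with YB328 (interval 2.58 to 4.04) and 3.21-fold higher with P. vulgatus (2.58 to 4.04). The untreated library stood alone at about the level of the minimum for expression, and both treated libraries were at the same level.

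Mrpl22 (ENSMUSG00000020514.8, chr11:58171661-58179565, + strand) encodes a protein that lines the tunnel through which the new peptide leaves. It had 6.19 (untreated), 15.0 (P. vulgatus) and 15.3 (YB328) CPM, a 2.46-fold difference with YB328 (interval 1.97 to 3.11) and 2.43-fold with P. vulgatus (1.94 to 3.06). Mrps30 (ENSMUSG00000021731.10, chr13:118378381-118387252, - strand) encodes a mitochondria-specific protein that belongs to the large subunit in spite of its name. It had 13.8 (untreated), 41.4 (P. vulgatus) and 31.4 (YB328) CPM, 2.27-fold higher with YB328 (1.95 to 2.65) and 2.999-fold higher with P. vulgatus (2.59 to 3.49). For both genes the 2 treated libraries were above the untreated one, and for Mrps30 the P. vulgatus library was the highest.

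Mrps2 was the small subunit gene that rose with both bacteria, and its ratio was the largest of the 78 in both comparisons. Mrps2 (ENSMUSG00000035772.11, chr2:28468066-28471178, + strand) encodes the counterpart of a bacterial protein that sits at the back of the small subunit, between head and body. Its estimated counts were 33 (untreated), 422 (P. vulgatus) and 369 (YB328), or 2.13, 15.98 and 13.5 CPM. The difference was 6.36-fold with YB328 (interval 4.45 to 9.38) and 7.502-fold with P. vulgatus (5.26 to 11.04). In TPM the untreated value, 1.05, was the lowest of the 78 genes in that library. The untreated level of 2.13 CPM was under the minimum of 5 CPM, which Mrps2 passed only through the treated libraries.

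Most of the genes that fell with both bacteria belong to the small subunit. Mrps28 (ENSMUSG00000040269.5, chr3:8802146-8923918, - strand), whose protein is related to bacterial S1, a protein that holds mRNA, had 24.0 (untreated), 9.88 (P. vulgatus) and 8.15 (YB328) CPM. It was 2.95-fold lower with YB328 (interval 2.49 to 3.496) and 2.43-fold lower with P. vulgatus (2.07 to 2.86). Mrps5 (ENSMUSG00000027374.12, chr2:127587222-127606829, + strand), whose bacterial counterpart acts in decoding accuracy, had 22.8, 9.99 and 7.999 CPM, 2.85-fold lower with YB328 (2.40 to 3.39) and 2.28-fold lower with P. vulgatus (1.94 to 2.68). The YB328 library was the lowest and the untreated library the highest for both genes.

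Mrps26 (ENSMUSG00000037740.8, chr2:130563742-130568695, + strand), which encodes a mitochondria-specific small subunit protein, had 53.5, 20.4 and 20.3 CPM. It was 2.64-fold lower with YB328 (interval 2.36 to 2.94) and 2.62-fold lower with P. vulgatus (2.35 to 2.92), with both treated libraries at one level.

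In the large subunit, Mrpl12 and Mrpl23 fell with both. Mrpl12 (ENSMUSG00000039640.7, chr11:120484613-120489065, + strand) encodes the stalk protein that recruits translation factors, and its protein is also known to bind the mitochondrial RNA polymerase. It had 66.2 (untreated), 30.0 (P. vulgatus) and 29.1 (YB328) CPM, 2.27-fold lower with YB328 (interval 2.07 to 2.50) and 2.21-fold lower with P. vulgatus (2.01 to 2.42). Mrpl23 (ENSMUSG00000037772.13, chr7:142532686-142540747, + strand), a protein of the tunnel exit, had 14.2, 4.83 and 5.77 CPM, 2.46-fold lower with YB328 (1.999 to 3.04) and 2.94-fold lower with P. vulgatus (2.35 to 3.67). Mrpl23 is uncertain, because the processed pseudogene Mrpl23-ps1 on chromosome 2 was at 149 (untreated), 71.7 (P. vulgatus) and 93.8 (YB328) TPM, above the 24.1, 10.9 and 14.3 TPM of the gene itself, and reads could be split between them.

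Each bacterium also had 1 gene called higher and 1 called lower with it and not with the other, and in all 4 the ratio with the other bacterium had the same sign. The share of all expressed genes called with only 1 bacterium was not computed. None of these splits between the bacteria held by deposited TPM, where Mrpl14 (log2 ratio 1.75 with YB328 and 1.46 with P. vulgatus) and Mrps6 (1.499 and 1.78) were past the size with both, and Mrps14 (-0.41 and -0.27) and Mrpl36 (-0.27 and -0.66) with neither. By total count scaling the log2 ratio of Mrps6 with YB328 was 1.005, just past the size. Mrpl14 (ENSMUSG00000023939.7, chr17:45686322-45698495, + strand), whose bacterial counterpart lies at the contact between the subunits, had 30.4 (untreated), 58.8 (P. vulgatus) and 69.0 (YB328) CPM. Its log2 ratio was 1.17 with YB328, which was called, and 0.94 with P. vulgatus, which was not. Mrpl14 overlaps 584 bases of Tmem63b on the opposite strand (4.97, 28.6 and 20.7 CPM), and in counts made without strand reads of the overlap cannot be told apart.

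Mrps6 (ENSMUSG00000039680.10, chr16:92058270-92112227, + strand), a platform protein of the small subunit, had 25.8, 66.2 and 51.5 CPM, with a log2 ratio of 1.34 for P. vulgatus (called) and 0.98 for YB328 (not called). Slc5a3, which shares 29152 bases with it on the same strand, had 4.78, 3.902 and 2.46 CPM. Mrps14 (ENSMUSG00000058267.13, chr1:160195215-160202170, + strand), a protein of the small subunit's head, had 84.4, 50.02 and 41.9 CPM, with a log2 ratio of -1.002 for YB328 (called) and -0.75 for P. vulgatus (not called). Mrpl36 (ENSMUSG00000021607.9, chr13:73328513-73332178, + strand), one of the smallest large subunit proteins, had 71.6, 32.9 and 39.4 CPM, with a log2 ratio of -0.86 for YB328 (not called) and -1.11 for P. vulgatus (called).

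The genes just outside the threshold show how finely it divides them. With YB328 the nearest uncalled genes were Mrps6 (0.98) and Mrps27 (0.89) on the higher side and Mrps25 (-0.96) and Mrpl36 (-0.86) on the lower side, in log2 ratio. With P. vulgatus they were Mrpl14 (0.94) and Mrpl45 (0.89) on the higher side and Mrpl2 (-0.97) and Mrps15 (-0.95) on the lower side. The nearest genes inside were Mrps30 (1.15), Mrpl14 (1.17), Mrps14 (-1.002) and Mrpl12 (-1.17) with YB328, and Mrpl22 (1.21), Mrps6 (1.34), Mrpl36 (-1.11) and Mrpl12 (-1.13) with P. vulgatus.

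**Figure D3:**
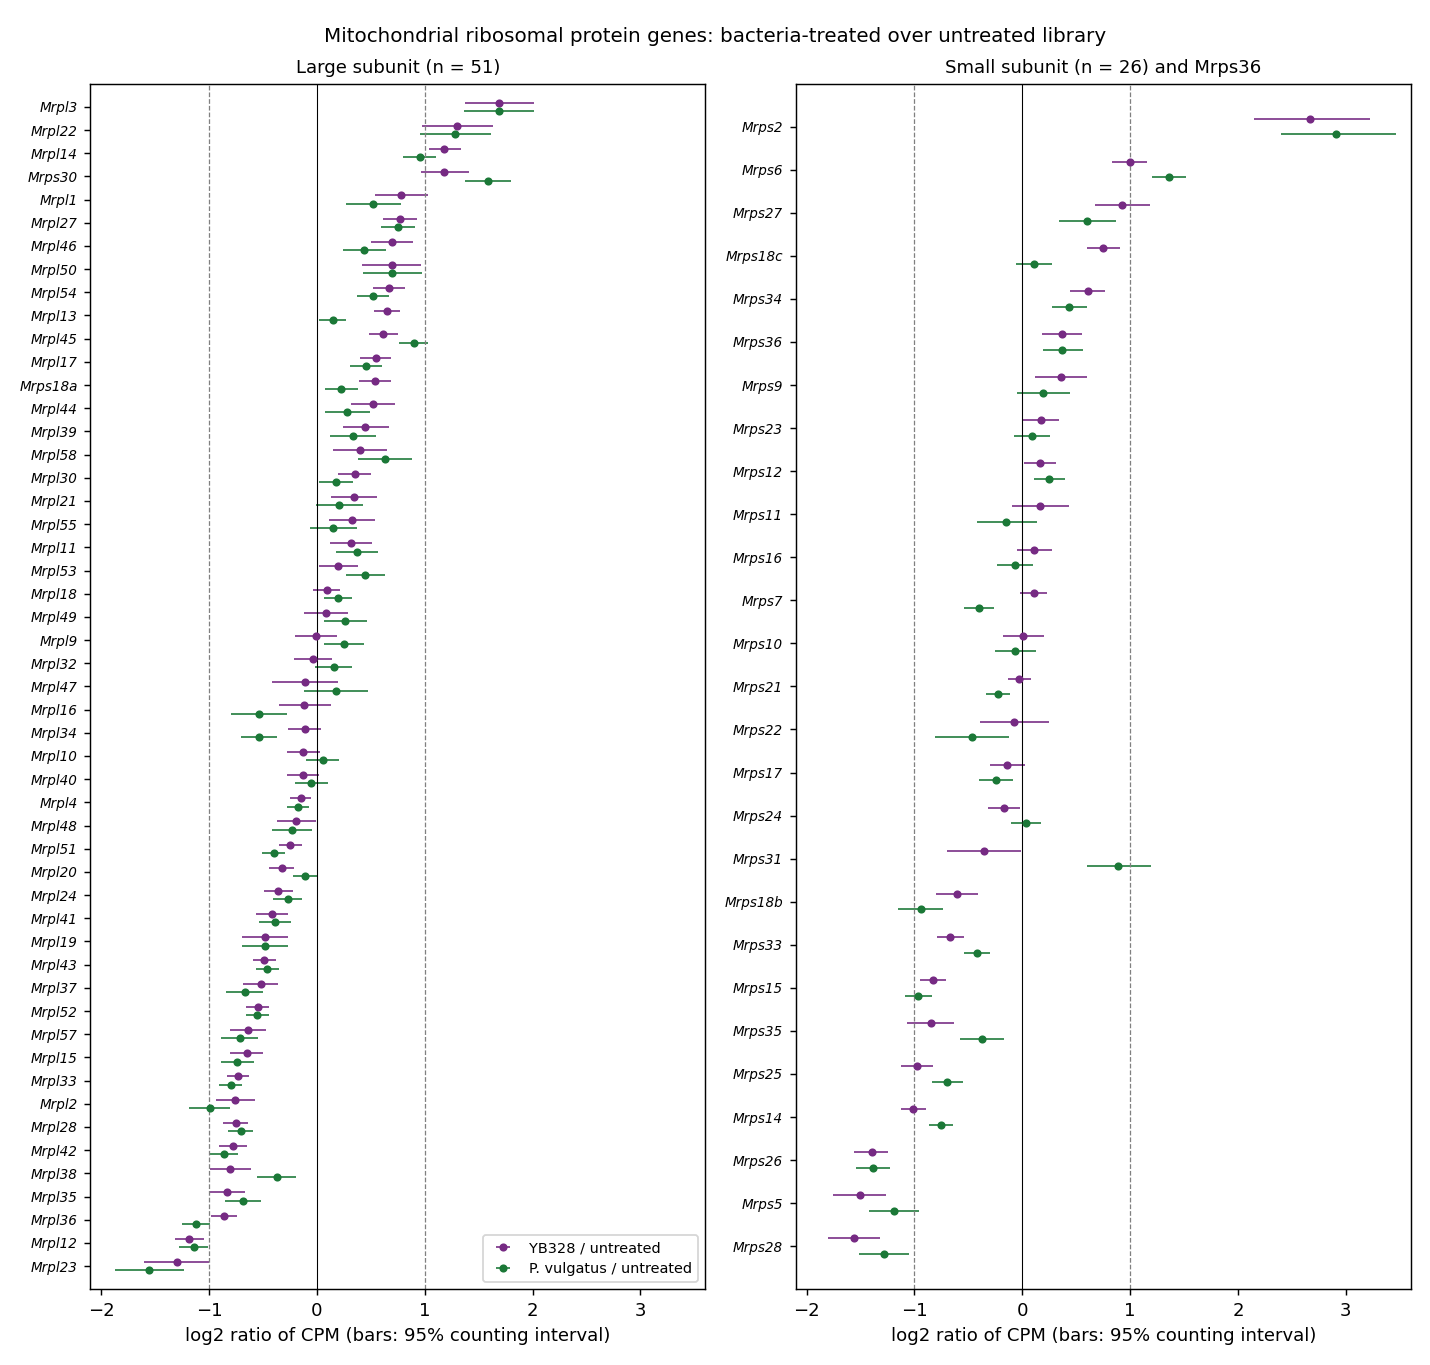
Log2 ratio of CPM, without an added value, of each of the 78 mitochondrial ribosomal protein genes in the P. vulgatus and YB328 libraries over the untreated library, large subunit and small subunit genes drawn apart, with exact 95% intervals of the count ratio that cover counting error only; dashed lines mark a log2 ratio of -1 and 1. Most points of both colours lie between the dashed lines, and Mrps2 lies farthest to the right with folds of 7.502 (P. vulgatus) and 6.36 (YB328).

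The YB328 and P. vulgatus libraries differed little in these genes. Against P. vulgatus, 0 of the 78 genes were higher and 1 was lower with YB328, beside 3.4% and 2.89% of all expressed genes. The median log2 ratio was 0.02, beside 0.00 for all expressed genes, and 98.7% of the 78 genes lay within 1 log2 unit, beside 93.7%. This comparison does not use the untreated library.

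Mrps31 (ENSMUSG00000031533.4, chr8:22411361-22429665, + strand), which encodes a mitochondria-specific small subunit protein, was the gene called lower. It had 123 (untreated), 389 (P. vulgatus) and 169 (YB328) estimated counts, or 7.94, 14.7 and 6.20 CPM. It was 2.38-fold lower with YB328 than with P. vulgatus (interval 1.98 to 2.86), and its log2 ratio to untreated was 0.85 with P. vulgatus and -0.33 with YB328, neither called. The P. vulgatus library alone was high. The highest ratio of YB328 to P. vulgatus was that of Mrps18c, with a fold of 1.57 (interval 1.44 to 1.71) that is below the size required. Mrps7 and Mrpl13 (log2 ratio 0.50 each) and Mrpl34 and Mrpl16 (0.41 each) came next, and Mrps35 (-0.46) and Mrpl38 (-0.42) were the lowest after Mrps31.

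By subunit, 4 of the 51 large subunit genes were called higher and 2 lower with YB328, with a median log2 ratio of -0.11, and 1 of the 26 small subunit genes was called higher and 4 lower, with a median of -0.05. With P. vulgatus the counts were 3 higher and 3 lower in the large subunit (median 0.15) and 2 higher and 3 lower in the small subunit (median -0.18). The shares higher and lower were 7.84% and 3.92% (large) and 3.85% and 15.4% (small) with YB328. With P. vulgatus they were 5.88% and 5.88% (large) and 7.69% and 11.5% (small). All were below those of all expressed genes, 24.7% and 18.3% with YB328 and 25.2% and 18.8% with P. vulgatus. The order of the 2 subunits' medians was opposite with the 2 bacteria, and the difference between subunits was not tested.

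By origin, the 48 genes of families shared with bacteria held 4 higher and 5 lower calls with each bacterium, with medians of -0.03 (YB328) and -0.07 (P. vulgatus). The 29 mitochondria-specific genes held 1 higher and 1 lower call with each, with medians of -0.13 and -0.05. The shares called higher and lower with each bacterium were 8.33% and 10.4% (bacterial families) and 3.45% and 3.45% (mitochondria-specific). All were below those of all expressed genes, 24.7% and 18.3% with YB328 and 25.2% and 18.8% with P. vulgatus. The gene called in the higher direction among the mitochondria-specific ones was Mrps30 and the lower one Mrps26, with both bacteria.

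By place in the ribosome, the 4 genes of the catalytic core held 1 higher call with each bacterium, Mrpl3. Of all expressed genes 24.7% were called higher and 18.3% lower with YB328, and 25.2% and 18.8% with P. vulgatus. Places of so few genes leave few calls to compare. The 8 genes of the tunnel exit held 1 higher call (Mrpl22) and 1 lower call (Mrpl23) with each, and had the highest median of these places with YB328, 0.47, and 0.30 with P. vulgatus. Mrpl45, which holds the ribosome to the inner membrane at the exit, had 39.3 (untreated), 73.2 (P. vulgatus) and 60.2 (YB328) CPM and was not called. The 5 stalk genes held 1 lower call with each bacterium, Mrpl12, and medians of 0.20 (YB328) and 0.36 (P. vulgatus). None of the 9 genes of the central protuberance was called with either bacterium.

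Of the small subunit, the 5 head genes held 1 lower call with YB328 (Mrps14) and none with P. vulgatus. The 4 body genes held 1 lower call with each (Mrps5). The 5 platform genes held 1 higher call with P. vulgatus (Mrps6) and none with YB328. These places too leave few calls to compare with the shares of all expressed genes. The mitoribosome has 3 proteins related to bacterial S18, encoded by separate genes. Mrps18a, whose protein sits in the large subunit, had 33.9, 39.6 and 49.1 CPM, Mrps18b 26.1, 13.6 and 17.2 CPM, and Mrps18c, the nearest to bacterial S18 in place, 29.6, 31.8 and 49.8 CPM. The log2 ratios with YB328 were 0.53, -0.59 and 0.74, and with P. vulgatus 0.22, -0.92 and 0.10, so the paralogs spread to both sides of no difference and none was called.

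Some members are known for roles beside the ribosome's usual work. Mrpl58 encodes a peptidyl-tRNA hydrolase that releases stalled chains, and had 12.1 (untreated), 18.8 (P. vulgatus) and 15.96 (YB328) CPM. Mrpl55 had 17.4, 19.3 and 21.8 CPM, and Mrps36, the dehydrogenase subunit, 22.3, 28.8 and 28.7 CPM. Mrps27, a pentatricopeptide repeat protein that binds RNA, had 10.8, 16.4 and 20.5 CPM. None of these 4 genes was called with either bacterium.

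Mitoribosomal proteins with other names were listed apart, and 0 of these 5 were called with YB328. With P. vulgatus 2 of the 5 fell, where 18.8% of all expressed genes did. Ptcd3, a pentatricopeptide repeat protein of the small subunit, had 28.7 (untreated), 9.47 (P. vulgatus) and 14.3 (YB328) CPM, with log2 ratios of -1.55 (P. vulgatus) and -0.98 (YB328). Gadd45gip1, a large subunit protein, had 33.4, 15.7 and 21.3 CPM, with log2 ratios of -1.07 and -0.64. Dap3, a GTP-binding protein of the small subunit's head, had 42.8, 51.5 and 35.2 CPM, Chchd1 28.3, 38.2 and 40.7 CPM, and Aurkaip1 64.3, 69.7 and 74.7 CPM.

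The ribosomal RNAs that these proteins bind were lower in both treated libraries. The 12S RNA gene mt-Rnr1 had 2263 (untreated), 304 (P. vulgatus) and 171 (YB328) CPM, and the 16S RNA gene mt-Rnr2 had 42922, 4728 and 3002 CPM. All 13 mitochondrially encoded protein genes fell with each bacterium, with median log2 ratios of -4.62 (YB328) and -4.37 (P. vulgatus). Of all expressed genes 18.3% fell with YB328 and 18.8% with P. vulgatus. mt-Cytb, a subunit of complex III, had 17697, 816 and 631 CPM. These RNAs are counted in the same libraries as the nuclear genes whose proteins bind or read them, for which the median log2 ratio was -0.05 and -0.06. Genes annotated as ribosomal RNA also held more of the untreated counts, 9.54% against 0.789% (P. vulgatus) and 0.386% (YB328). With 1 library per group, a difference by treatment and a difference in library makeup cannot be told apart.

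Of 27 listed genes for assembly and rRNA modification 23 were expressed, of which 5 rose and 4 fell with YB328 and 6 rose and 3 fell with P. vulgatus. Their shares, 21.7% and 17.4% with YB328 and 26.1% and 13.0% with P. vulgatus, were near those of all expressed genes (24.7% and 18.3%, and 25.2% and 18.8%). Mrm2, a methyltransferase of the 16S rRNA, had 0.710 (untreated), 10.9 (P. vulgatus) and 8.92 (YB328) CPM, and Mrm1, which methylates another base of it, 6.52, 23.1 and 16.4 CPM. Mpv17l2, an assembly factor of the inner membrane, had 7.29, 16.3 and 24.7 CPM, and Mterf3, a factor of large subunit biogenesis, 9.54, 27.4 and 17.9 CPM. Mterf3 rose with P. vulgatus, while with YB328 its log2 ratio of 0.87 was below the size required. The other 3 genes named here rose with both, and the genes of this list that fell are not named. Mrm2 was under 5 CPM in the untreated library and passed the minimum only through the treated libraries.

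Of 14 mitochondrial translation factors, 1 fell with YB328 (7.14%, beside 18.3% of all expressed genes) and 0 were called with P. vulgatus, with medians of -0.45 and -0.41. The gene that fell was 2810006K23Rik, with 16.8, 12.6 and 7.85 CPM. Of 16 expressed mitochondrial aminoacyl-tRNA synthetase genes, which load tRNAs with amino acids, 3 rose and 3 fell with YB328 (18.8% each, beside 24.7% and 18.3% of all expressed genes) and 3 rose and 2 fell with P. vulgatus (18.8% and 12.5%, beside 25.2% and 18.8%). Aars2 (0.387, 6.25 and 12.8 CPM) and Ears2 (5.87, 33.8 and 38.1 CPM) rose with both, and Nars2 (13.5, 6.06 and 2.46 CPM) fell with both. Aars2 was under the minimum of 5 CPM in the untreated library. Lars2 had 67404, 3118 and 1551 CPM and on its own held 6.72% of the untreated counts, a share that touches every value scaled to the whole library. Its share was 0.309% with P. vulgatus and 0.157% with YB328. Genes annotated as ribosomal RNA held 9.54% (untreated), 0.789% (P. vulgatus) and 0.386% (YB328). Whether all reads counted for Lars2 came from its mRNA was not tested.

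Upstream of the ribosome, of 16 expressed genes for mitochondrial transcription and RNA processing 2 rose and 2 fell with YB328 (12.5% each), and 2 rose and 3 fell with P. vulgatus (12.5% and 18.8%). Of all expressed genes 24.7% rose and 18.3% fell with YB328, and 25.2% and 18.8% with P. vulgatus. Tfb2m, a transcription initiation factor, had 18.5, 5.69 and 5.06 CPM and Tbrg4, an RNA-binding protein, 17.9, 3.82 and 3.23 CPM, and both fell with both bacteria. Trmt10c, a subunit of the mitochondrial RNase P, had 4.58, 15.2 and 12.7 CPM and Fastkd5, which acts in cutting the precursor RNA, 0.516, 7.38 and 3.85 CPM, and both rose with both. Each was under the minimum of 5 CPM in the untreated library, and Fastkd5 was also under it with YB328.

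Of 10 expressed regulators of mitochondrial biogenesis, 0 rose and 4 fell with YB328, and 1 rose and 4 fell with P. vulgatus. All expressed genes had 24.7% higher and 18.3% lower with YB328 and 25.2% and 18.8% with P. vulgatus, which in a list of 10 genes leaves few calls to compare. Ppargc1b, a transcriptional coactivator, had 13.0 (untreated), 0.0379 (P. vulgatus) and 0.954 (YB328) CPM. Myc, a growth regulator, had 36.3, 4.32 and 4.11 CPM, Gabpb2, a subunit that pairs with an ETS-family factor, 32.6, 7.88 and 8.20 CPM, and Yy1, a zinc-finger factor, 30.3, 13.7 and 8.77 CPM. These 4 genes fell with both bacteria, and the gene that rose with P. vulgatus was Nrf1 (15.9, 40.1 and 21.8 CPM), named after its value was seen. Of 23 import genes, 3 rose and 3 fell with YB328 (13.0% each) and 3 rose and 1 fell with P. vulgatus (13.0% and 4.35%), shares below those of all expressed genes in each case. Among them were Pmpcb, a subunit of the protease that removes import signals, which rose with both (4.13, 38.3 and 31.0 CPM), and Timm44, which couples the channel to its motor, which fell with both (58.6, 24.95 and 24.4 CPM). Pmpcb was under the minimum of 5 CPM in the untreated library.

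Beside these, 2 large sets of genes for other complexes give a scale. Of 79 cytosolic ribosomal protein genes, 0 rose and 49 fell with YB328 (62.0%, beside 18.3% of all expressed genes, median log2 ratio -1.12), and 0 rose and 54 fell with P. vulgatus (68.4%, beside 18.8%, median -1.20). Rps12 had 192 (untreated), 36.0 (P. vulgatus) and 25.8 (YB328) CPM, and Rpl12 103, 14.6 and 17.0 CPM. Of 76 expressed nuclear genes for the respiratory chain and ATP synthase, 1 rose and 8 fell with YB328 (1.32% and 10.53%, median -0.23), and 1 rose and 11 fell with P. vulgatus (1.32% and 14.5%, median -0.30). Of all expressed genes 24.7% rose and 18.3% fell with YB328, and 25.2% and 18.8% with P. vulgatus. Of the 76 genes, 88.2% (YB328) and 84.2% (P. vulgatus) lay within 1 log2 unit of no difference. The 78 mitochondrial ribosomal protein genes had 85.9% with each, so their narrow spread was not particular to them. Ndufa9, a complex I subunit, had 22.7, 62.9 and 64.2 CPM and rose with both. No test of the difference between these sets and the mitochondrial ribosomal protein genes is possible with 1 library per group.

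**Figure D4:**
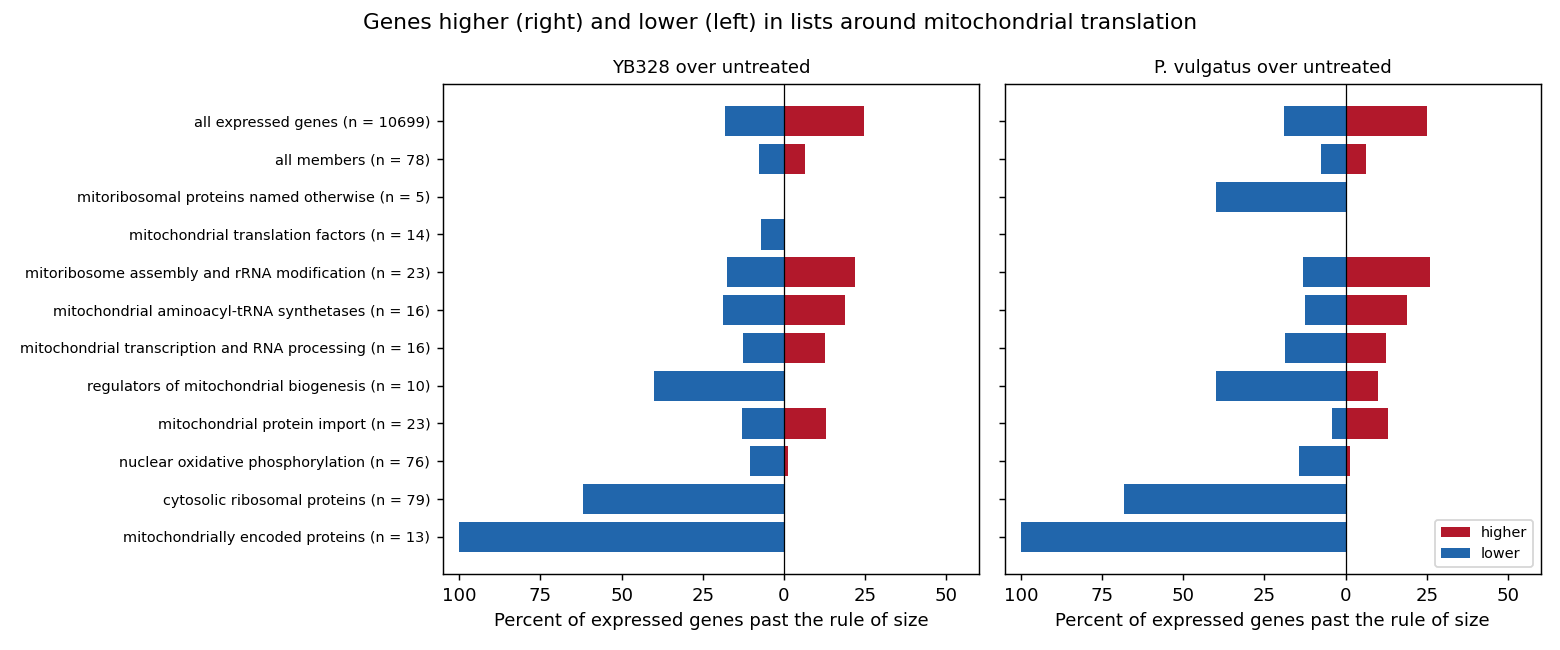
Percent of the expressed genes of each list called higher (right of 0) and lower (left of 0) in the YB328 and P. vulgatus libraries over the untreated library, with the number of expressed genes in brackets. The 78 mitochondrial ribosomal protein genes have 6.41% higher and 7.69% lower with each bacterium, while all 13 mitochondrially encoded genes and most cytosolic ribosomal protein genes are on the lower side.

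As a group, the 78 genes held 0.277% (untreated), 0.248% (P. vulgatus) and 0.259% (YB328) of counts. Over the counts of nuclear protein-coding genes other than Lars2 alone, these shares were 0.478%, 0.261% and 0.268%, so the untreated share was the highest on both bases and the gap was wider on the second. Summed TPM ran the other way, with 4022 (untreated), 4659 (P. vulgatus) and 5101 (YB328), of which the large subunit made 2638, 3109 and 3398 and the small subunit 1339, 1470 and 1618. On the TPM scale the median log2 ratio of all expressed genes also shifted, to 0.61 with YB328 and 0.49 with P. vulgatus, and that of the 78 genes was 0.37 and 0.28. By TPM with the same size of ratio, 15 of the 78 were higher and 0 lower with YB328, and 10 were higher and 2 lower with P. vulgatus, against 5 and 6 with each by scaled counts. On this scale 37.0% of all 9408 genes of 5 TPM or more in at least 1 library were higher and 12.9% lower with YB328, and 33.9% and 14.9% with P. vulgatus. The shares of the 78 genes, 19.2% and 0% with YB328 and 12.8% and 2.56% with P. vulgatus, were below these in both directions.

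Relative to the median of all expressed genes, the median of the 78 was lower under each of the 5 scalings. Scaling of counts multiplies each library by a common factor and moves both medians together, so it could hardly change this gap. The gap was -0.23 with YB328 and -0.20 with P. vulgatus by TMM, -0.25 and -0.22 by TMM on nuclear protein-coding genes without Lars2, and -0.24 and -0.21 by TPM. Its size depended on which genes were tested: with no minimum level it was -0.05 (YB328) and -0.06 (P. vulgatus), and with a minimum of 20 CPM -0.43 and -0.36. The sign of the median itself differed between scalings, so no common direction of the 78 genes against the untreated library is given.

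**Figure D5:**
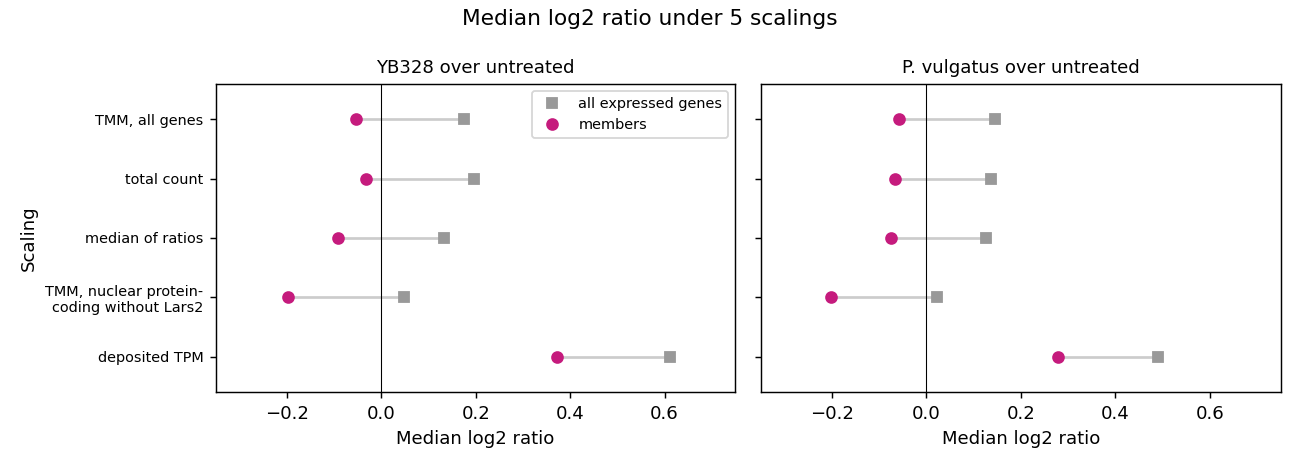
Median log2 ratio (horizontal axis) of the 78 mitochondrial ribosomal protein genes and of all expressed genes under 5 scalings (vertical axis), for YB328 and P. vulgatus over the untreated library. The median of the 78 genes moves from -0.20 to 0.37 (YB328) and from -0.20 to 0.28 (P. vulgatus) between scalings, and stays to the left of that of all genes in each. Scalings of counts move both medians together, so the gap between them could hardly change.

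Single genes could also part from the rest between the 2 deposited scales. Mrpl19 had 20.9 (untreated), 15.0 (P. vulgatus) and 15.0 (YB328) CPM but 3.62, 3.19 and 8.11 TPM. Its log2 ratio of YB328 to untreated was -0.47 by CPM and 1.06 by TPM, opposite in sign. Its count per TPM in YB328 relative to untreated was 0.443 times that of the median of the 78 genes, the lowest of all, while 74 of the 78 lay between 0.7 and 1.4. The transcript lengths behind each TPM value are not used here, and the source of the difference was not tested.

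The start regions of 69 of the 78 genes were matched in the RefSeq table (GRCm38.p6, 300 bases each). For each gene the RefSeq start nearest to the deposited gene's start was taken, with no limit on the distance. The letters CCGGAAG of the ETS family were present on either strand in 24 of the 69, or 34.8%, against 12.2% of all 16802 start regions and 20.5% of those of 8167 expressed genes. The NRF1 letters GCGCATGCG were present in 7 (10.1%, against 2.51% and 4.04%), and the YY1 letters AAGATGGCG in 8 (11.6%, against 2.01% and 3.62%). TATAAA was present in 4 (5.80%, against 13.1% and 6.91%). At least 1 of the first 3 motifs was in 34 of the 69 (49.3%), against 15.8% of all and 26.3% of expressed genes. Motifs may overlap, since the letters CCGGAAG followed by ATGGCG would count for both the ETS family and YY1. Some matches lay in windows far from the deposited gene's start. They included Mrpl33 (17016 bases away) for the ETS family, and Mrps24 (7979), Mrpl35 (3185) and Mrpl36 (2496) for YY1.

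Among the genes called with both bacteria, the ETS-family letters were in 2 of the 4 higher genes and in 1 of the 4 lower genes with a matched start region. The NRF1 letters were in 1 higher gene, Mrpl22, and the YY1 letters in none of them. These are matches of letters in a window, and nothing about binding was measured.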

How the data were processed

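RNA-seq of 3 mouse BMDC libraries was analysed, 1 each untreated, with P. vulgatus and with YB328. Per the labels' protocols, cDNA was made with SMART-Seq v4 and libraries with Nextera XT, which does not mark strand. Per the submitters' processing notes, DRAGEN and the build GRCm38 were used; the sources used here name neither a counting tool nor an annotation release. Per the file headers, the deposited table gives a count and a TPM for each gene and library. The deposited counts are estimated counts (expected counts): 8.86% (untreated), 9.38% (P. vulgatus) and 9.99% (YB328) of genes had values that were not whole, which were rounded where an interval was computed. The deposited TPM values allow for the length of a gene as well as depth. Depth was 15538133, 26660870 and 26924006 counts.

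Counts of all genes were scaled by TMM with edgeR (4.0.16, R 4.3.3), which was used for nothing else. All other steps ran in Python (3.11.15) with pandas 2.3.3, numpy 2.4.6 and scipy 1.17.1, and figures were drawn with matplotlib 3.10.9. The rule of size (5 CPM in at least 1 library, log2 ratio of at least 1 with 0.5 CPM added, count ratio with an exact 95% interval, Clopper-Pearson given the sum of both counts, excluding 1) was applied to every gene and tested on simulated data. With 1 library per group there was no test across libraries.

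Named were the genes called in any comparison, the 5 highest and 5 lowest log2 ratios in each comparison, the 6 highest and 6 lowest mean TPM, the genes next to the threshold, members chosen for their roles and, from other lists, up to 4 called genes. The members, lists and this rule were chosen with earlier results of these data known, and the cytosolic ribosomal and respiratory chain lists were built by name pattern after the table was seen. Alternatives were other scalings (total count, DESeq2 1.42.0 median-of-ratios size factors, TMM on nuclear protein-coding genes without Lars2, deposited TPM), other minimum levels and added values, thinning all libraries to the lowest total, and a mean over the genes in place of their median.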

Additional observations from a re-analysis of the deposited data

How the results depend on the processing

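No paired analysis was possible because each group has 1 library, and for the same reason no library could be left out. Under median-of-ratios size factors, total count scaling, other added values, no minimum level and thinning, the counts of the 78 genes called stayed within 1.5 times those reported. The unit and the minimum level moved them most. By deposited TPM, 15 genes were higher and 0 lower with YB328 (median log2 ratio 0.37), 10 higher and 2 lower with P. vulgatus (median 0.28), and 1 higher with YB328 than with P. vulgatus (Mrpl19, log2 ratio 1.22). Of all genes tested by TPM, 37.0% were higher and 12.9% lower with YB328, and 33.9% and 14.9% with P. vulgatus, so higher genes made 74.1% and 69.5% of those called. With TPM centred on the median of all expressed genes, an alternative chosen after seeing the data, 5 were higher and 12 lower with YB328 (median -0.24). With P. vulgatus 5 were higher and 9 lower (median -0.21) on that scale. Again 1 was higher with YB328 than with P. vulgatus. The share of all genes called with centred TPM was not computed. TMM on nuclear protein-coding genes without Lars2 gave 10 lower with P. vulgatus, or 12.8%, beside 20.2% of all genes tested. A minimum of 20 CPM left 66 genes, of which 2 were higher with each bacterium, or 3.03%. Mrps2, Mrpl3 and Mrpl22, called higher with both bacteria above, and Mrpl23, called lower with both, were under this minimum and were no longer called. Of all genes tested there, 26.9% were higher with YB328 and 26.8% with P. vulgatus. By its construction 0 of the 66 were lower with YB328 than with P. vulgatus. The gap between the median of the 78 genes and that of all genes was -0.43 (YB328) and -0.36 (P. vulgatus) there, and -0.05 and -0.06 with no minimum level, since another set of genes is tested. The 5 genes lower with both bacteria were not called lower with YB328 by TPM. Mrps14 was not called lower with YB328 by total count scaling, with 2 CPM added or after thinning (log2 ratio -0.98 in each), nor by TPM (-0.41). Leaving out the 20 genes that overlap another expressed gene, and Mrpl23, was also chosen after seeing the data and left 57 genes. Of these, 4 were higher and 5 lower with YB328 (median -0.07). With P. vulgatus 5 were higher and 4 lower (median -0.06), and all these counts were within 1.5 times those of the 78 genes. The cause of the changes between settings was not tested. With reads taken as independent, the interval half-width was 0.16 log2 units for the median gene with YB328. The spread between cultures is unknown.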
